A study of Mus musculus with 12 samples.

Results

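The subject is a set of 8 genes for lysosomal cathepsins, Ctss, Ctsa, Ctsb, Ctsc, Ctsd, Ctsh, Ctsl and Ctsz, followed through the maturation of CD4 single positive (SP) thymocytes. The genes were taken by name, and their probe sets were those that the annotation of the array assigns to 1 of the 8 symbols alone, which gave 19 of 45037 probe sets and 8 of 18193 genes. The RNA came from thymi of C57BL/6 mice aged 6 to 8 weeks, pooled before sorting, and was hybridised to 12 Affymetrix Mouse Genome 430 2.0 arrays, 3 biological replicates for each of 4 subsets. All subsets were CD4+CD8-CD25-NK1.1- cells left after killing with anti-CD8 and complement. SP1 was 6C10+CD69+Qa-2-, SP2 was 6C10-CD69+Qa-2-, SP3 was 6C10-CD69-Qa-2- and SP4 was 6C10-CD69-Qa-2+, in the order of maturation that the study assigned them. No animal was treated or genetically altered. The array sort did not remove CD44hi cells, so that T cells returning to the thymus from the periphery can be present in SP4, and each array is a pool that gives no value for a single mouse.

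Cathepsins are the main proteases of endosomes and lysosomes. They are made as inactive precursors, are carried from the Golgi to the lysosome largely by mannose 6-phosphate receptors, and become active at acid pH. Most are cysteine proteases (B, C, H, L, S and Z), whereas cathepsin D is an aspartic protease and cathepsin A a serine carboxypeptidase. In the mouse thymus they are best known from the cells that select T cells: cathepsin L of cortical epithelial cells and cathepsin S of dendritic cells and B cells degrade the invariant chain, which frees the groove of MHC class II molecules for peptide. In T cells themselves they serve lysosomal turnover and, for cathepsin C, the activation of granzymes.

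Of the 8 genes, read by 1 representative probe set each, Ctss and Ctsh differed between subsets in a test across all probe sets. Ctss was higher in SP4 than in SP1, with mean intensities of 2565 ± 233 in SP4 and 1098 ± 155 in SP1 (SD, n = 3 arrays each). Ctsh was low in SP2 and SP3 and higher in SP4 at 143 ± 61.5, against 29.5 ± 8.0 in SP2 (SD, n = 3 each), a difference that was called only when the replicate number was fitted as a block. Ctsa, Ctsb, Ctsc, Ctsd, Ctsl and Ctsz were not called in any of the 6 comparisons. For each of these, the replicate number held more of the variance of the log2 values over the arrays (46.3 to 89.3%) than the subset did (8.15 to 32.6%).

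Short stretches of 3 promoters are shown because they hold letters that transcription factors of the lysosomal and interferon systems are known to read. The RefSeq table of promoter windows, on build GRCm38.p6, covered 6 of the 8 genes. Each window runs from 250 bases before a start site to 50 bases after it, and Ctsa has more than 1. Both strands were searched for TCACGTGA, the core of the element bound by TFEB and its relatives at lysosomal genes, and for a pair of GAAA with 2 bases of any kind between, the core of the interferon-stimulated response element (ISRE). The lines give the 120 bases before the start site, 5' to 3' on the strand of the gene, with the matching letters in capitals. They lie at chr3:95526666-95526785 on the plus strand for Ctss, at chr2:164833653-164833772 on the plus strand for Ctsa and at chr7:142387828-142387947 on the minus strand for Ctsd.
Ctss: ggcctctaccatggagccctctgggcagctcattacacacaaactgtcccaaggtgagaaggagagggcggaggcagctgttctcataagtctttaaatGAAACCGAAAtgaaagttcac
Ctsa: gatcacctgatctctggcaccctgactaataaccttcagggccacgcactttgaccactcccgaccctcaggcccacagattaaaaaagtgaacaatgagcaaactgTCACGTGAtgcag
Ctsd: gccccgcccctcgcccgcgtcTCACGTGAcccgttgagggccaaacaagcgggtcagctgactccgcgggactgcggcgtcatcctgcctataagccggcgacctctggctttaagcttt

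The ISRE letters stood 21 bases before the start site of Ctss and were found in the window of none of the other 5 genes. Of the 27025 genes in the table, 3.99% held them, against 6 of the 10 genes of an interferon response list that had a window. The TFEB letters began 99 bases before the start of Ctsd, and in 1 of the windows of Ctsa at 13 bases before and again at base 5 of the transcript. They occurred in 1.12% of all genes, in 6 of 22 genes for lysosomal membrane and sorting proteins and in 1 of 25 genes for other lysosomal hydrolases. The search matches letters alone, and the 2 motifs do not overlap at any of these places.

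All values are linear intensities that the authors had normalised between arrays, with array medians from 30.5 to 32.8. A gene was read by its probe set of highest mean over the 12 arrays, its representative. Differences were tested with limma on log2(intensity + 16), with Benjamini-Hochberg adjustment across the 45037 probe sets of each comparison, and a gene was called at an adjusted p under 0.05. Fold changes are on that log2 scale, which understates those of dim probe sets. Intensities of different probe sets were not compared. Arrays with the same replicate number deviated together from their subset means, as did replicates 1 and 2 with each other, while replicate 3 stood apart. A second fit held the replicate number as a block. Its values stand beside a result where they change the call. All 8 measured CD4 T cell identity genes lay above the array median on every array. In these bulk samples, fewer cells of a type and less RNA per cell cannot be told apart.

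The share of all probe sets that was called is the background for the cathepsins. It was 1.08% in SP4 vs SP1, 0.557% in SP4 vs SP2, 0.16% in SP4 vs SP3, 0.0111% in SP3 vs SP1, and 0% in SP3 vs SP2 and 0% in SP2 vs SP1. With the replicate block it was 5.16% in SP4 vs SP1, 2.65% in SP4 vs SP2, 1.16% in SP4 vs SP3, 0.329% in SP3 vs SP1, 0.22% in SP3 vs SP2 and 0.00888% in SP2 vs SP1. Against this, 1 of the 8 cathepsin genes was called in SP4 vs SP1 in either fit, and in SP4 vs SP2 none without the block and 2 with it. None was called in the other 4 comparisons. At an unadjusted p under 0.05 in limma, 1 cathepsin passed in SP2 vs SP1, 0 in SP3 vs SP2, 2 in SP4 vs SP3, 1 in SP3 vs SP1, 2 in SP4 vs SP2 and 1 in SP4 vs SP1, beside 1237, 1359, 2143, 1349, 2887 and 3518 of the 45037 probe sets. With the block 3, 3, 4, 4, 4 and 5 cathepsins passed in the same order, beside 3658, 3903, 4961, 3802, 6190 and 7531 probe sets. The median log2 fold change of the 8 genes was 0.20 in SP4 vs SP1, 0.32 in SP4 vs SP2 and 0.26 in SP4 vs SP3, while the median of all genes was -0.013, -0.016 and -0.016. It was 0.13 in SP3 vs SP2 but -0.21 in SP3 vs SP1 and -0.053 in SP2 vs SP1, with 3 of 8 genes above 0 in each of the last 2.

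**Figure D1:**
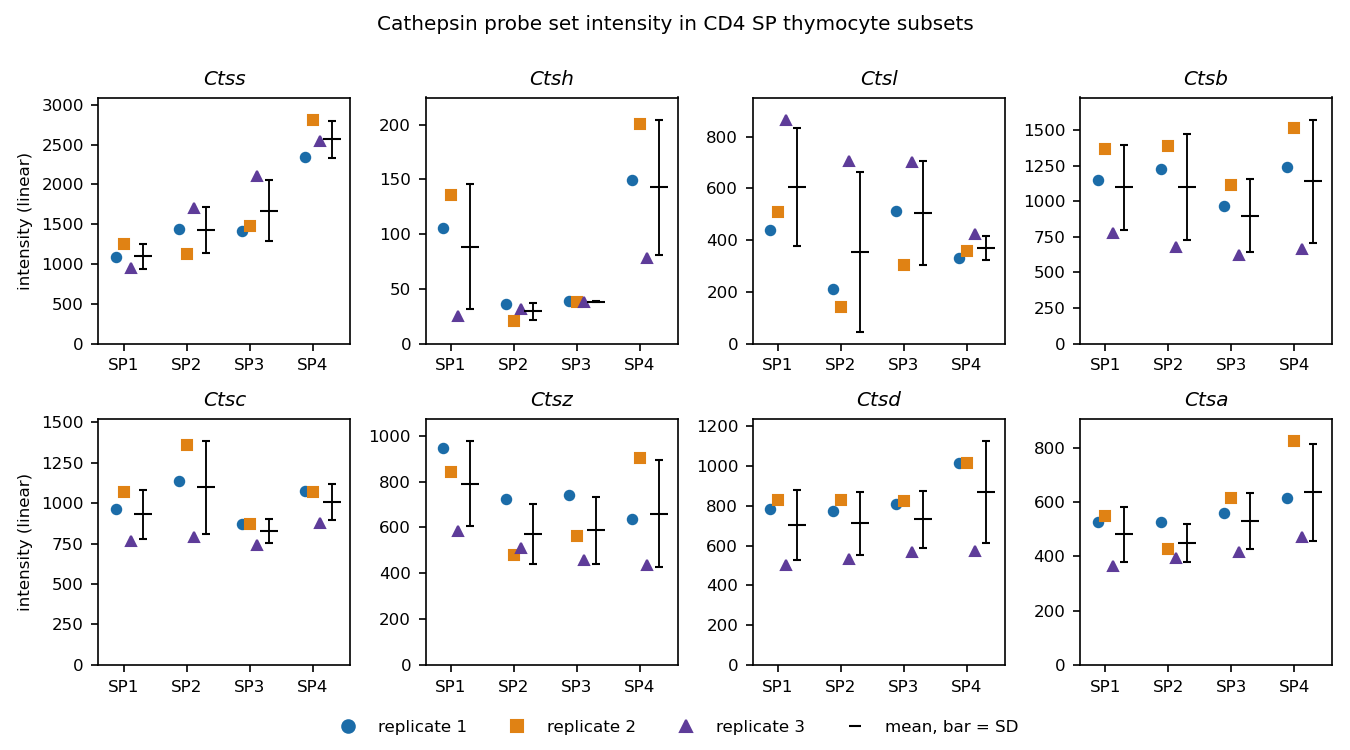
Linear intensity (y axis, from 0, a scale of its own in each panel) of the representative probe set of each cathepsin gene in SP1, SP2, SP3 and SP4 (x axis). Coloured symbols are the 3 arrays of a subset by replicate number, and black marks are the mean with a bar of 1 SD. The 3 SP4 arrays of Ctss sit between 2346 and 2810.0, above all others, while the triangles of replicate 3 lie lowest in every subset for Ctsb, Ctsc, Ctsd and Ctsa and highest for Ctsl.

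Ctss encodes cathepsin S, an endopeptidase that stays active near neutral pH and carries out the last cuts of the invariant chain in antigen presenting cells. It has 1 probe set here. Its intensities were 1094, 1255 and 946 in SP1, 1435, 1131 and 1709 in SP2, 1419, 1477 and 2111 in SP3, and 2346, 2810.0 and 2539 in SP4. Every SP4 array was above every array of the earlier subsets, and the SP3 arrays were all above the SP1 arrays, whereas SP2 overlapped both of its neighbours. The means were ordered SP1, SP2, SP3, SP4 from low to high.

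In SP4 vs SP1 the log2 fold change of Ctss was 1.22 (standard error 0.20, 95% interval 0.78 to 1.66, adjusted p = 0.0141 from limma), and the ratio of SP4 to SP1 within replicate 1, 2 and 3 was 2.14, 2.24 and 2.68. This call was lost without replicate 1 of SP1 (adjusted p = 0.0628), without replicate 3 of SP1 (adjusted p = 0.0652) or without replicate 2 of SP4 (adjusted p = 0.0695). In SP4 vs SP2 the log2 fold change was 0.86 (95% interval 0.42 to 1.30, adjusted p = 0.133), and Ctss was called there only with the replicate block (adjusted p = 0.0234). The steps between neighbours were not called: 0.36 in SP2 vs SP1 (95% interval -0.08 to 0.80), 0.22 in SP3 vs SP2 (95% interval -0.22 to 0.66) and 0.63 in SP4 vs SP3 (95% interval 0.19 to 1.08, adjusted p = 0.624). The subset accounted for 82.9% of the variance of Ctss over the 12 arrays and the replicate number for 2.52%, against medians of 20.2% and 38.2% over all probe sets. Ctss is among the genes that the study named from these arrays, so its difference here is not independent evidence of that choice.

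Genes that respond to interferon moved with Ctss. Of 12 measured genes of the interferon response list, 7 were higher in SP4 than in SP1 and 0 lower, among them Ifit3 (log2 fold change 2.30, adjusted p = 0.00830 from limma) and Oas2 (1.21, adjusted p = 0.00795). The summed intensity of the list ran from 7575 to 9195 in SP4 and from 4378 to 5091 in SP1. Over the 12 arrays, with replicate means removed, Ctss correlated with the list sum at r = 0.96. Ctsd and Ctsa correlated with that sum at 0.83 and 0.77, and the other cathepsin genes from -0.33 (Ctsl) to 0.48 (Ctsh). The 3 genes most like Ctss by this measure among 7176 genes with a mean intensity of at least 100 were Phf11d, Rcn1 and Cd9, each at r = 0.98. These correlations describe arrays that share the same RNA preparations, and the part of interferon response in the Ctss difference was not tested.

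Markers of other cells also moved with Ctss. The 19 measured markers of myeloid and dendritic cells summed to 1688, 2416 and 1367 in SP4 and to 1381, 1427 and 476 in SP1. Of them 0 were called in SP4 vs SP1 by limma without the block (5 at an unadjusted p under 0.05) and 3 with it (Mpeg1, Siglech and Itgam), and Itgam, Cd14, Xcr1, Zbtb46, Csf3r and Mrc1 were above the array median on no array. Of the other lists, 5 of 14 markers of NKT and other innate-like T cells and 3 of 11 of activated and memory T cells were higher in SP4 than in SP1. The NKT sum ran from 2777 to 3649 in SP4 and from 455 to 2305 in SP1, and the memory sum from 3886 to 5674 in SP4 and from 1615 to 3772 in SP1. Over the 12 arrays with replicate means removed, Ctss correlated at r = 0.79 with the sum of the memory markers, at 0.73 with that of the NKT markers and at 0.72 with that of the myeloid markers. These lists share members, Ccl5 in the NKT and memory lists and Fcer1g in the NKT and myeloid lists. For the B cell, MHC class II and double positive sums r was 0.46, 0.29 and -0.06. The part of these cells in the Ctss difference was not tested.

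**Figure D2:**
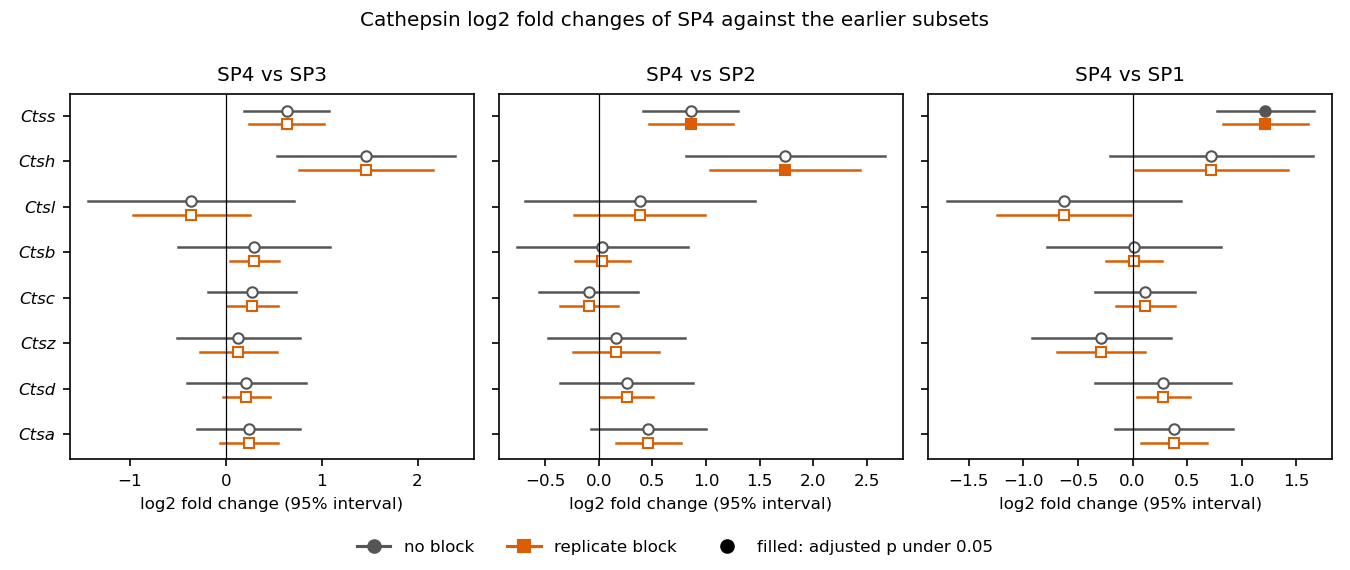
Log2 fold change (x axis) of SP4 against SP3, SP2 and SP1, 1 panel each, for the 8 cathepsin genes (y axis). Circles are the limma fit without a block, squares the fit with the replicate block, lines their 95% intervals, and filled symbols an adjusted p under 0.05. Ctss is filled in both fits in SP4 vs SP1, and Ctss and Ctsh with the block in SP4 vs SP2.

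Ctsh encodes cathepsin H, an aminopeptidase. Its intensities were 105, 136 and 24.8 in SP1, 36.2, 20.6 and 31.6 in SP2, 39.0, 38.0 and 37.9 in SP3, and 149, 201 and 78.5 in SP4. The SP4 arrays lay above all SP2 and SP3 arrays, and SP1 was split, with replicate 3 at the level of SP2 and the other arrays within the SP4 range. The SP2 and SP3 values lay close to the array medians, so the size of a fold against them depends on the background.

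In SP4 vs SP2 the log2 fold change of Ctsh was 1.74 (standard error 0.42, 95% interval 0.81 to 2.67, adjusted p = 0.158 from limma). It was called with the replicate block (standard error 0.32, adjusted p = 0.0112) and SP4 was above SP2 within each of the 3 replicate numbers. The other probe set of Ctsh gave 1.56 in the same comparison (adjusted p = 0.0147 with the block). In SP4 vs SP3 the log2 fold change was 1.47 (95% interval 0.54 to 2.40, adjusted p = 0.480, and 0.0510 with the block). SP2 lay below SP1 at replicates 1 and 2 but not at replicate 3, with a log2 fold change of -1.02 (95% interval -1.94 to -0.09, adjusted p = 1.00). In SP4 vs SP1 the value was 0.72 (95% interval -0.21 to 1.65, adjusted p = 0.830).

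As a sum, the myeloid and dendritic cell markers followed the same path as Ctsh. Their sum was 692, 549 and 703 in SP2 and 721, 715 and 782 in SP3, below all 3 SP4 arrays, and replicate 3 of SP1 was again apart from replicates 1 and 2. Of these 19 markers, 14 had a log2 fold change above 0 in SP4 vs SP2 (median 0.23), 1 was called higher, and 5 with the block. Of the 14 NKT and innate-like markers, 6 were called higher there, and 11 with the block. Ctsh correlated with the myeloid sum at r = 0.98 over the 12 arrays with replicate means removed. Its correlation was 0.85 with the sum of 10 genes of the MHC class II pathway, 0.84 with that of 14 NKT and innate-like markers and 0.80 with that of 9 B cell markers. The genes most like Ctsh were Tyrobp (r = 0.97), Grn (r = 0.97) and Irf8 (r = 0.96). Tyrobp, an adaptor of myeloid and natural killer cells, is itself among the 19 markers of the myeloid sum. Grn encodes the lysosomal glycoprotein progranulin, and Irf8 a transcription factor of dendritic cells and B cells. Of the 9 B cell markers, 0 were called in SP4 vs SP2 by limma without the block, 2 had an unadjusted p under 0.05 and 1 was called with the block, and Pax5 and Ebf1 were above the array median on no array. The study's methods describe the sorted cells as nearly all TCRβ+, from data not shown, and the sorted groups as not fully pure. Its discussion allows that SP4 may be mixed, with cells becoming regulatory T or NKT cells and traces of returning naive T cells. The part of other cells in the Ctsh difference was not tested.

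**Figure D3:**
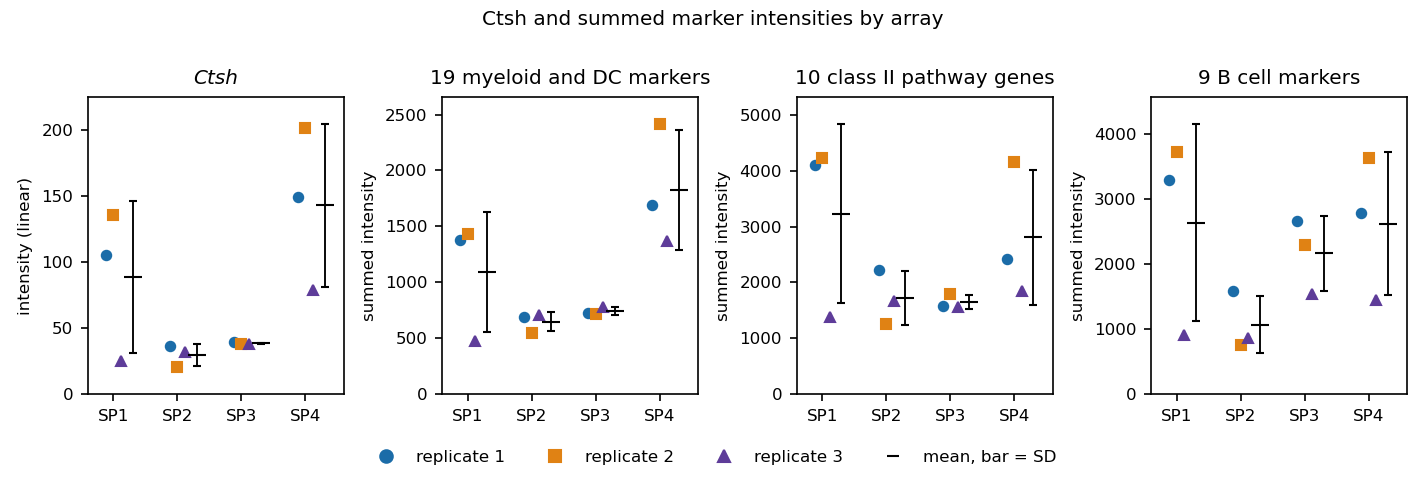
Linear intensity of Ctsh (left) and the summed intensity of 19 myeloid and dendritic cell (DC) markers, 10 MHC class II pathway genes and 9 B cell markers (y axes, from 0) in SP1 to SP4 (x axis). Symbols are arrays by replicate number and black marks the mean with 1 SD. Ctsh and the myeloid sum share low SP2 and SP3 arrays, high SP4 arrays and an SP1 array of replicate 3 that sits low, at 24.8 for Ctsh and 476 for the sum.

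Ctsl encodes cathepsin L, the endopeptidase that cortical epithelial cells of the mouse thymus use on the invariant chain. Its intensities were 440.1, 510.0 and 865 in SP1, 212, 141 and 707 in SP2, 513, 302 and 701 in SP3, and 333, 358 and 422 in SP4. Replicate 3 was the highest array in all 4 subsets, and its mean was 1.92 times that of replicates 1 and 2. All SP4 arrays lay below all SP1 arrays, and the SP4 vs SP1 log2 fold change was -0.63 (95% interval -1.70 to 0.45, adjusted p = 0.952 from limma). In SP2 vs SP1 the log2 fold change was -1.01 (95% interval -2.09 to 0.06), with ratios of SP2 to SP1 of 0.481, 0.276 and 0.818 within replicates 1, 2 and 3. Neither difference was called in either fit.

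The thymic epithelial and stromal markers, in 14 probe sets, summed to 467, 467, 468 and 506 on the replicate 3 arrays of SP1 to SP4, the lowest array of each subset, where Ctsl was highest. On each array 5 or 6 of these 14 markers were above the array median. Krt8, Krt14, Foxn1, Psmb11, Pdgfra, Col1a1 and Col3a1 were above it on no array. In SP4 vs SP1, 1 of the 14 was called higher and 0 lower, in either fit. The sum of 8 regulatory T cell markers was 3126, 3470 and 5621 in SP1 and 4238, 4339 and 7027 in SP2. It was 2119, 2723 and 3595 in SP3 and 2897, 4322 and 5449 in SP4. This sum was highest at replicate 3 in each subset, as Ctsl was. Within each replicate number it was higher in SP2 than in SP1, whereas Ctsl was lower. The sum of 10 double positive thymocyte markers was 8498, 8817 and 1859 in SP1 and 3434, 2014 and 1754 in SP2. It was 14806, 8957 and 3153 in SP3 and 4511, 4278 and 1845 in SP4. Over the 12 arrays with replicate means removed, Ctsl correlated at r = 0.77 with the double positive sum and at 0.68 with the B cell sum. The part of epithelial, regulatory T, double positive and B cells in the Ctsl values was not tested. A second Ctsl probe set had a mean under 100 and its replicate 3 array was the lowest in every subset, opposite to the representative.

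Ctsb encodes cathepsin B, which cuts both inside proteins and from their carboxyl end. Its representative gave 1147, 1366 and 776 in SP1, 1228, 1388 and 681 in SP2, 967, 1113 and 619 in SP3, and 1240.0, 1512 and 666 in SP4. Replicate 3 was the lowest array of every subset, and the subset means spanned a ratio of only 1.27, with SP3 lowest. The SP4 vs SP1 log2 fold change was 0.013 (95% interval -0.78 to 0.81). The replicate number held 89.3% of the variance and the subset 8.15%.

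A second bright probe set of Ctsb was also lowest in SP3 within each replicate number but parted replicate 3 much further. It gave 1464, 1557 and 208 in SP1, 1543, 1648 and 207 in SP2, 1145, 1037 and 132 in SP3, and 1465, 1580.5 and 208 in SP4. Its replicate 3 mean was 0.132 times that of replicates 1 and 2, against 0.551 for the representative, so that 2 probe sets of 1 gene disagreed about the size of the replicate difference. On both, SP3 was lower than SP2 and than SP4 within each replicate number. The double positive sum was highest in SP3 within each number and correlated with the Ctsb representative at r = -0.69 over the 12 arrays with replicate means removed, and its part in the Ctsb values was not tested. With the replicate block the second probe set was called in SP4 vs SP3 (log2 fold change 0.52, adjusted p = 0.0451, against 1.00 without the block), while the representative was not (0.30, adjusted p = 0.354 with the block).

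**Figure D4:**
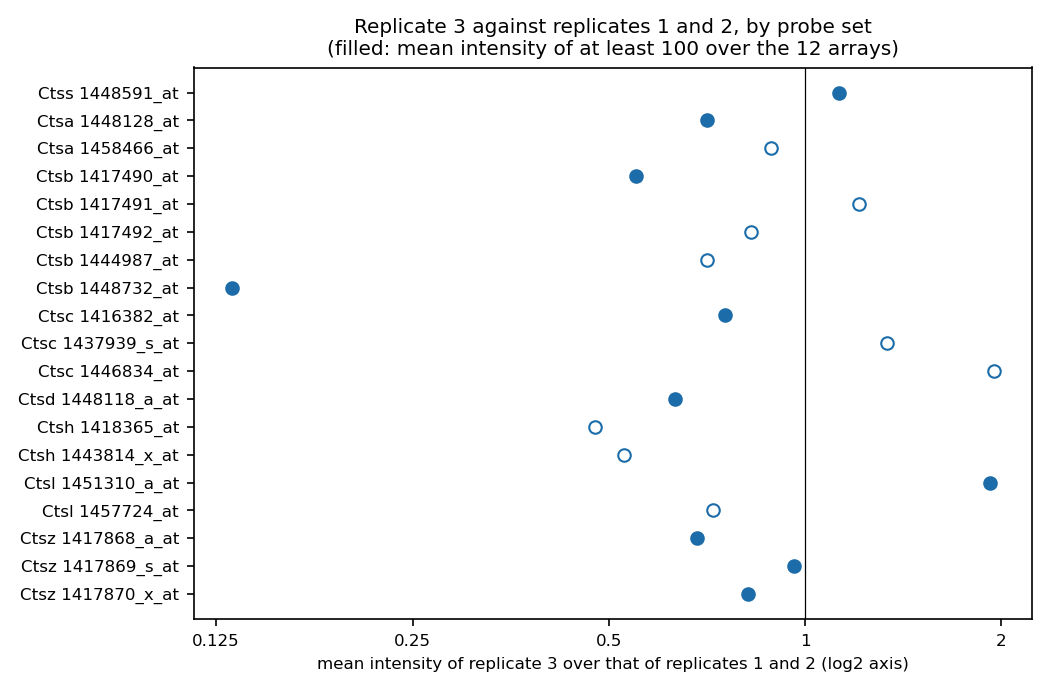
Ratio of the mean intensity of replicate 3 to that of replicates 1 and 2 over the 4 subsets (x axis, log2 axis) for each of the 19 cathepsin probe sets (y axis). Filled symbols have a mean intensity of at least 100. The filled points run from 0.132 for a Ctsb probe set to 1.92 for Ctsl, with Ctss at 1.13.

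Ctsc encodes cathepsin C, the dipeptidyl peptidase that activates granzymes. It gave 963, 1066 and 768 in SP1, 1137, 1361 and 793 in SP2, 872, 870.0 and 740 in SP3, and 1075, 1071 and 875 in SP4. Within each replicate number SP2 was above SP1 and SP3 was below SP2. The SP4 arrays did not overlap those of SP3, but the gap was narrow, from 872 in SP3 to 875 in SP4. No step was called: the log2 fold change was 0.21 in SP2 vs SP1 (95% interval -0.25 to 0.67), -0.37 in SP3 vs SP2 (95% interval -0.83 to 0.09) and 0.28 in SP4 vs SP3 (95% interval -0.18 to 0.74). Ctsc ran opposite to the sum of 10 double positive thymocyte markers, which was highest in SP3 within each replicate number (r = -0.88 over the 12 arrays with replicate means removed). The part of double positive cells in the Ctsc values was not tested.

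Ctsd encodes cathepsin D, the main aspartic protease of the lysosome. It gave 783, 827 and 502 in SP1, 771, 831 and 532 in SP2, 808, 822 and 568 in SP3, and 1016, 1017 and 572 in SP4. SP4 was the highest subset within each replicate number, by a ratio to SP1 of 1.30, 1.23 and 1.14 for replicates 1, 2 and 3, but replicate 3 of SP4 lay below the replicate 1 and 2 arrays of all subsets. The SP4 vs SP1 log2 fold change was 0.28 (95% interval -0.34 to 0.90, adjusted p = 0.998 from limma, and 0.212 with the block). With replicate means removed, Ctsd correlated at r = 0.83 with the interferon sum and 0.73 with the myeloid sum. Its correlation was 0.60 with the NKT sum and 0.60 with the memory sum. For the B cell, MHC class II and double positive sums r was 0.40, 0.28 and -0.16. The part of these in the Ctsd values was not tested.

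Ctsa encodes cathepsin A, the protective protein that stabilises lysosomal neuraminidase and beta-galactosidase. It gave 526, 550 and 365 in SP1, 526, 427 and 392 in SP2, 561, 615 and 414 in SP3, and 614, 824 and 469 in SP4. As for Ctsd, SP4 was above SP1 within every replicate number, at ratios of 1.17, 1.50 and 1.29, and the subsets overlapped. The SP4 vs SP1 log2 fold change was 0.38 (95% interval -0.16 to 0.92, adjusted p = 0.882 from limma, and 0.169 with the block). With replicate means removed, Ctsa correlated at r = 0.85 with the memory sum, 0.82 with the NKT sum and 0.77 with the myeloid sum. For the B cell, MHC class II and double positive sums r was 0.73, 0.52 and 0.25. The part of these cells in the Ctsa values was not tested.

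Ctsz encodes cathepsin Z, a carboxypeptidase also called cathepsin X. Its representative gave 946, 842 and 584 in SP1, 723, 481 and 512 in SP2, 742, 563 and 456 in SP3, and 637, 903 and 438 in SP4. SP1 had the highest mean and SP2 the lowest on all 3 probe sets of the gene, and SP2 lay below SP1 within each replicate number. In SP2 vs SP1 the log2 fold change was -0.45 (95% interval -1.09 to 0.19), and in SP4 vs SP1 it was -0.29 (95% interval -0.92 to 0.35). The SP4 arrays spread widest, from 438 to 903, and overlapped every other subset. With replicate means removed, Ctsz correlated at r = 0.79 with the MHC class II sum and 0.60 with the B cell sum. For the other sums r ran from -0.24 (interferon) to 0.44 (myeloid). The part of these cells in the Ctsz values was not tested.

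Of the 19 probe sets, 10 had a mean intensity of at least 100. The 9 dimmer ones were both of Ctsh and 7 further probe sets of Ctsa, Ctsb, Ctsc and Ctsl, whose single arrays ran from 12.6 for Ctsc to 104 for Ctsb. None of those 7 was called in either fit. Over the 8 representatives, replicate 3 was below replicates 1 and 2 in all 4 subsets for Ctsa, Ctsb, Ctsc and Ctsd, in 3 subsets for Ctsh and Ctsz, and in 1 for Ctss. The ratio of replicate 3 to the mean of replicates 1 and 2 was 0.477 for Ctsh, 0.551 for Ctsb, 0.632 for Ctsd, 0.682 for Ctsz, 0.707 for Ctsa and 0.755 for Ctsc. The cause of the difference between replicate 3 and the others was not tested.

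Related genes were read from lists to place the cathepsins in their pathway. In SP4 vs SP1, 1.08% of all probe sets were called, and 5.16% with the block. Of 12 other cathepsins and cathepsin-like proteases, 1 was called in SP4 vs SP1 and 3 with the block, all higher in SP4. Ctsw, a cathepsin of cytotoxic lymphocytes, gave 1487, 1984 and 1927 in SP4 and 602, 711 and 662 in SP1, a log2 fold change of 1.42 (adjusted p = 0.00784 from limma). Lgmn, the legumain that processes cathepsins, gave 163, 210 and 112 in SP4 and 121, 127 and 52.3 in SP1 and was called only with the block (log2 fold change 0.65, adjusted p = 0.00893), as was the dim Ctsf (0.28, adjusted p = 0.0144). Ctse, an aspartic cathepsin of endosomes, was bright in every subset and not called (0.42, adjusted p = 0.189).

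Of 9 measured inhibitors, 1 was called in either fit. Cst7, the cystatin F that enters lysosomes and blocks cathepsin C, gave 120.1, 309 and 248 in SP4 and 53.4, 52.9 and 14.6 in SP1 (log2 fold change 2.11, adjusted p = 0.0158 from limma). Of 28 other lysosomal hydrolases, 2 were higher in SP4 than in SP1 and 0 lower, and with the block 4 were higher and 1 lower. Arsb, an arylsulfatase of glycosaminoglycan breakdown, gave 269, 312 and 387 in SP4 and 44.7, 56.6 and 36.0 in SP1 (log2 fold change 2.45, adjusted p = 0.000943). Sgsh, a sulfatase of heparan sulfate, was also higher (0.63, adjusted p = 0.0281).

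None of 26 genes for lysosomal membrane and sorting proteins was called without the block (2 at an unadjusted p under 0.05 in limma). With it, 1 was called in SP4 vs SP1, a share below the 5.16% of all probe sets. This was Igf2r, the larger mannose 6-phosphate receptor that carries cathepsin precursors, higher in SP4 (0.88, adjusted p = 0.00291 from limma). Of 7 genes for MiT transcription factors and lysosome regulators, 0 were called in either fit (1 at an unadjusted p under 0.05), with a median log2 fold change of 0.13. The medians were 0.08 for the other cathepsins, 0.06 for the hydrolases and 0.06 for the membrane and sorting list, against 0.20 for the 8 cathepsins and -0.013 for all genes. The 10 measured MHC class II pathway genes, partners of Ctss and Ctsl in antigen presenting cells, had a median of -0.18 with 0 called in either fit (2 at an unadjusted p under 0.05).

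**Figure D5:**
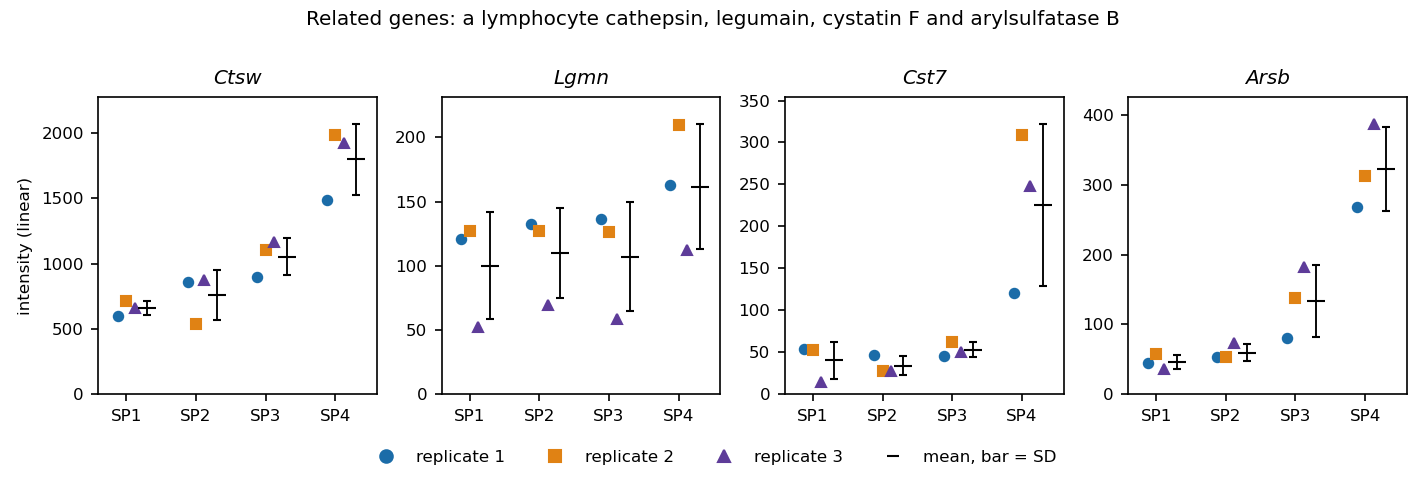
Linear intensity (y axis, from 0) of Ctsw, Lgmn, Cst7 and Arsb in SP1 to SP4 (x axis), with arrays as symbols by replicate number and the mean with 1 SD in black. Ctsw, Cst7 and Arsb have their 3 SP4 arrays above all SP1 arrays, and the replicate 3 array of Lgmn is the lowest in every subset.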

How the data were processed

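Sorted SP1 to SP4 cells were profiled on 12 arrays. The authors deposited linear probe set intensity values, already corrected for background and normalised between arrays. The methods name RMA in R Bioconductor and the submitters' processing notes name MAS5, and no version is given in the sources used here. The number of arrays limits the precision. Here log2(intensity + 16) was fitted with limma 3.58.1 in R 4.3.3, with 1 mean per subset, eBayes with a trend and 8 residual degrees of freedom. The fit without the block was tested on simulated data with independent arrays, which does not cover the replicate effect or the block. Same-numbered arrays correlated in their deviations from subset means at 0.279 to 0.883 in all 18 pairs. Replicates 1 and 2 also correlated with each other, at 0.178 to 0.729 in 12 pairs, and replicate 3 correlated with 1 and 2 at -0.812 to -0.388. These correlations set replicate 3 apart and do not by themselves show that arrays pair by number. The block held the replicate number of the labels (6 residual degrees of freedom). The labels call the arrays biological replicates. limma stood in place of the SAM test of the methods. The annotation names 1 gene for 34945 probe sets, several for 932 and none for 9160. All 8 members are named, and up to 4 related genes per list were named in order of fold among those called in SP4 vs SP1 in either fit; Ctse was named after its values were seen. Neighbours were added for Ctsh because it was called with the block. The genes and lists were chosen with earlier results of these data known. Alternatives were the block, offsets of 1 and 64, a filter at a mean of 100, quantile normalisation, no trend, only the 6 arrays compared, the mean over probe sets of a gene, and leaving out each array.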

Additional observations from a re-analysis of the deposited data

How the results depend on the processing

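The number of cathepsin genes called in SP4 vs SP2 was 0 without and 2 with the replicate block (Ctss and Ctsh), and for the representative probe sets the block changed no other call. With replicates 1 and 2 alone (8 arrays), chosen after seeing the data because replicate 3 stood apart, 1 gene was called in SP2 vs SP1 (Ctsh, -1.63, adjusted p = 0.0497 from limma), 1 in SP4 vs SP3 (Ctsh, 1.80, adjusted p = 0.00519) and 2 in SP4 vs SP2 (Ctss, 1.00, adjusted p = 0.0370, and Ctsh, 2.11, adjusted p = 0.000916). Leaving out 1 array at a time gave 0 to 1 called genes in SP4 vs SP1, where the log2 fold change of Ctss ran from 1.12 to 1.32 (adjusted p from 0.0106 to 0.0695), and 0 to 1 in SP4 vs SP2, where Ctsh was called without replicate 3 of SP1 (adjusted p = 0.0125). In SP4 vs SP1 the uncalled log2 fold changes changed sign for Ctsb (-0.23 to 0.35) and Ctsc (-0.015 to 0.22), and moved by over 1.5 times without changing sign for Ctsa (0.18 to 0.57), Ctsd (0.061 to 0.55), Ctsh (0.14 to 1.09), Ctsl (-0.82 to -0.35) and Ctsz (-0.54 to -0.030). In SP2 vs SP1 they ran from -1.59 to -0.65 for Ctsh and from -1.66 to -0.55 for Ctsl. With the offsets, quantile normalisation, no variance trend, only the 6 arrays compared and the mean over probe sets, the counts of called cathepsins stayed at their values. The filter at a mean of 100 left Ctsh out, so it has no value there. Dim probe sets can lie near the array medians, which limits what their ratios show. Ctsh did so in SP2, SP3 and replicate 3 of SP1, and lay above the medians on the other arrays.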
